A study of Mus musculus with 40 samples.

Results

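The miR-29 family was followed in the blood of ageing mice. Its 3 guide strands, mmu-miR-29a-3p, mmu-miR-29b-3p and mmu-miR-29c-3p (written without the mouse prefix from here on), were found by name among the 1915 microRNA rows of the count table, of which 1016 held any read. Total blood had been drawn from the retro-orbital sinus of male wild-type mice of the C57B/6J strain, which were housed singly, and small RNA libraries had been made from it. The 40 libraries came from mice aged 12 months (n = 10), 13.5 months (n = 10), 15 months (n = 10) and 16.5 months (n = 10). The labels describe the series as longitudinal but do not say which libraries came from home-cage mice and which from mice that learned the water maze, nor do they name the mouse behind a library, so p-values measure the spread between these libraries. The labels name no agent and no engineered allele, and the groups differ by age. By the study's methods, mice of the learning group went through a further round of the water maze at each later age, so for any library from that group age and training cannot be told apart. The study places the 12-month blood draw before any behaviour in 1 passage and after the first maze procedure in another.

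MicroRNAs guide the Argonaute complex to messenger RNAs that pair with the seed at their 5′ end, which lowers the stability and translation of those messages. The miR-29 family is known as a repressor of collagens and other extracellular matrix genes and of de novo DNA methyltransferases, and its level rises with age in several tissues. Its members share a seed and are made from a pair of genomic clusters, so they are widely treated as 1 family even though the body of the mature strand differs between members.

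The mature strands are shown because their shared and differing bases decide how far the counts of the members can be told apart. The sequences are those of RefSeq on GRCm38.p6, printed 5′ to 3′ with the seed, bases 2 to 8, in capitals.

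miR-29a-3p: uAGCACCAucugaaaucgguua
miR-29b-3p: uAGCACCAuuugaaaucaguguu
miR-29c-3p: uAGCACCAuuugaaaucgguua

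The seed AGCACCA was held by these 3 of the 1679 mature names searched and by no other. Counted from 1 at the 5′ end, miR-29c-3p differed from miR-29a-3p by the single substitution C10U. From miR-29c-3p to miR-29b-3p the substitutions were G18A, U21G and A22U, and miR-29b-3p is 1 base longer. Reads of at least 18 bases with 0 mismatches were counted when they fell within 2 bases upstream and 5 bases downstream of the mature strand. In those windows the longest stretch shared by the miR-29b and miR-29c hairpins was 19 bases, so reads of 18 or 19 bases from that stretch could not be assigned to 1 of them. The longest stretch shared with miR-29a was 13 bases for miR-29c and 11 bases for miR-29b, below the shortest read counted.

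On mouse chromosome 6 (GRCm38), the hairpin of Mir29a lies at chr6:31062660-31062747 on the minus strand, outside any other annotated gene. Mir29b-1 lies 275 bases away at chr6:31063023-31063093 on the same strand, and its last 2 bases overlap an exon of the long noncoding RNA gene Gm27019. On chromosome 1, Mir29b-2 lies at chr1:195037040-195037120 and Mir29c at chr1:195037547-195037634, both on the plus strand with 426 bases between them. Both hairpins lie in an exon of the noncoding transcript A330023F24Rik and overlap an exon of the complement regulator gene Cd46 on the opposite strand. The miR-29b-3p strand comes from both clusters, and the 25 bases that its hairpins share keep the table from telling its source.

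Total counts per library ranged from 2469196 to 21386209, but most were miR-486, an erythroid microRNA. Outside the 4 miR-486 rows, the median was 855062 counts at 12 months, 698499 at 13.5 months, 267135 at 15 months and 597338 at 16.5 months, so the libraries at 15 months were the shallowest for the family. Column names at 12 and 16.5 months shared 1 form, ending in a letter alone. Those at 13.5 months ended in the letter A and a number, and those at 15 months in the letter B or C and a number. Age and any library series that these forms reflect cannot be told apart in comparisons across forms. At 16.5 months 1 library stood apart from the rest (connectivity Z-score -3.40), and leaving it out changed none of the calls given for the family. Red cell markers were abundant in every library. The summed level of the 4 of 5 red cell markers that passed the count filter had medians of 719930, 772340, 1246200 and 746630 CPM from the youngest to the oldest age and ran from 521320 to 4056800 over all libraries. CPM are counts scaled to library sizes by the trimmed mean of M-values (TMM) of edgeR, so such sums can exceed the nominal total, and both erythroid miR-486 guide rows, which hold identical counts, are added in. Liver miR-122-5p had at most 3 counts in any library.

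miR-29a-3p carried the family in blood. It gave 27746 of the 28054 counts of the 3 members, 98.9% (exact 95% interval 98.8 to 99.0), while miR-29c-3p gave 208 counts (0.741%) and miR-29b-3p gave 100 counts (0.356%). By summed counts miR-29a-3p ranked between 52 and 56 among the 654 to 869 microRNAs with reads at each age. miR-29c-3p ranked between 259 and 320 and miR-29b-3p between 299 and 369. Such intervals cover counting error only, since the reads carried no molecular identifiers.

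**Figure D1:**
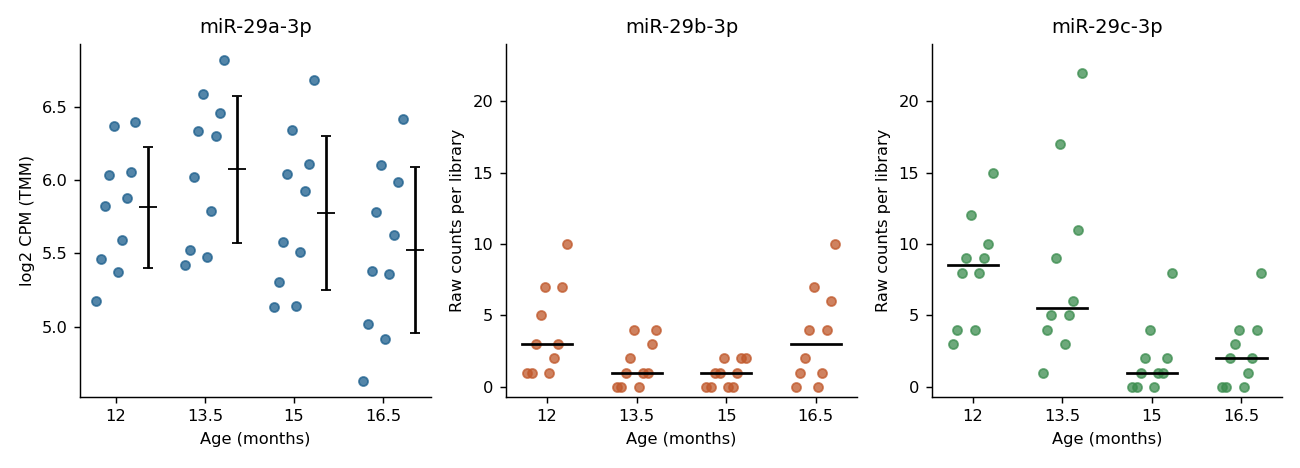
Values of the 3 members in each of the 10 libraries per age. Left, miR-29a-3p as log2 CPM (TMM) with mean ± SD. Middle and right, raw counts of miR-29b-3p and miR-29c-3p with the median as a line. miR-29a-3p overlapped between all ages, while miR-29b-3p never exceeded 10 counts in a library and miR-29c-3p never exceeded 22.

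Expression of miR-29a-3p was variable within ages and was not called changed over age. At 12 months it had between 373 and 1560 raw counts (median 927), which gave 5.17 to 6.40 log2 CPM with a median of 5.85. At 13.5 months the log2 CPM ran from 5.42 to 6.82 with a median of 6.16. At 15 months it ran from 5.13 to 6.69 with a median of 5.75, and at 16.5 months from 4.63 to 6.42 with a median of 5.50. The ages overlapped over most of their range, and the lowest value of all was that of a 16.5-month library with 34 raw counts. Mean levels were 5.82 ± 0.41, 6.08 ± 0.50, 5.78 ± 0.53 and 5.52 ± 0.57 log2 CPM in order of age (SD, n = 10 each). The quasi-likelihood test of edgeR over the 4 ages gave an adjusted p of 0.187. In the same test 64 of 105 microRNAs with over 100 reads in 50% of libraries were called, 61% of those tested. The study's methods removed unwanted variation with RUVs without giving the number of factors. With 1 factor by the RUVs approach added to the edgeR model, the adjusted p for miR-29a-3p was 0.0249. The factor was estimated from log raw counts of replicate libraries without library scaling. It can therefore carry depth, which differed between ages, and need not match the factors of the study.

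Between pairs of ages no difference in miR-29a-3p passed the threshold. The level at 16.5 months was lowest relative to 13.5 months, with a log2 fold change of -0.52 (SE 0.22, 95% interval -0.97 to -0.07) and an adjusted p of 0.0570 by edgeR. Of the 10 libraries at 16.5 months, 9 lay below the mean CPM at 13.5 months. For this pair, 42 of 105 microRNAs were called, 40% of those tested. The other pairs had log2 fold changes between -0.28 and 0.28 with a common SE of 0.22 and adjusted p from 0.303 to 0.999. In those pairs 29.5% (13.5 against 12 months), 23.8% (15 against 12), 23.8% (16.5 against 12), 47.6% (15 against 13.5) and 28.6% (16.5 against 15) of the 105 microRNAs were called. Without the 13.5-month library that held 611 raw counts of miR-29a-3p, the adjusted p for 16.5 against 13.5 months was 0.0349 at a log2 fold change of -0.58. It was also under the threshold without 1 of 4 other libraries, between 0.0422 and 0.0496. Thus 5 of 40 omissions gave a call, and in the others the adjusted p ran up to 0.147 (edgeR).

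The spread of miR-29a-3p within ages was 0.51 log2 units, above the median of 0.37 over the 105 microRNAs. The span between its highest and lowest age mean was 0.55 log2 units, below the median span of 0.63.

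miR-29b-3p was sparse. Raw counts ran from 1 to 10 (median 3) at 12 months, from 0 to 4 (median 1) at 13.5 months, from 0 to 2 (median 1) at 15 months and from 0 to 10 (median 3) at 16.5 months. It was at 0 in 9 of 40 libraries, where the limit that 0 counts allow (3 counts) stood at 2.74 to 32.3 CPM of the counts outside miR-486. All ages overlapped. On TMM library sizes, mean levels were 0.253 ± 0.222 CPM at 12 months, 0.116 ± 0.0915 at 13.5 months, 0.214 ± 0.218 at 15 months and 0.261 ± 0.192 at 16.5 months (SD, n = 10 each).

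miR-29b-3p and miR-29c-3p did not reach the filter of over 100 reads. They were tested among the 345 microRNAs with over 1 read in 50% of libraries, where miR-29b-3p passed with exactly the 20 libraries needed. Its median was 3 counts at 12 and 16.5 months and 1 count at 13.5 and 15 months. It thus passed mainly through the ages where it was high, among them 16.5 months. Over age the adjusted p of miR-29b-3p was 0.103 (edgeR), while 135 of 345 microRNAs were called, 39.1%. miR-29b-3p was higher at 16.5 than at 13.5 months, by a log2 fold change of 1.38 (SE 0.49, 95% interval 0.40 to 2.36, adjusted p = 0.0334 by edgeR). For this pair 74 of 345 microRNAs were called, 21.4%, of which 34 were higher, 9.86% of those tested. In 8 of 10 libraries at 16.5 months the level was above the mean at 13.5 months (0.116 CPM). Among these were libraries with 1 count each, at 0.146 and 0.141 CPM. At 13.5 months 3 libraries held 0 counts, with limits of 4.15, 8.85 and 2.74 CPM of the counts outside miR-486. The 13.5-month mean on that scale was 2.01, so those libraries cannot show a level below it. The call was lost, with adjusted p up to 0.105, when any 1 of 8 libraries of these ages was left out. It was also lost when libraries were scaled by their totals alone (log2 fold change 1.33, adjusted p = 0.124, edgeR) and when no filter was applied (1.38, adjusted p = 0.0959). Against 12 months, the log2 fold change at 13.5 months was -0.97 (SE 0.47, adjusted p = 0.176), which did not pass. Neither miR-29b-3p nor miR-29c-3p was called in the other 5 pairs, where 15.7% (13.5 against 12 months), 11.3% (15 against 12), 13.9% (16.5 against 12), 27% (15 against 13.5) and 12.5% (16.5 against 15) of the 345 were called.

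miR-29c-3p moved the other way between these ages. Raw counts ran from 3 to 15 (median 8.5) at 12 months, from 1 to 22 (median 5.5) at 13.5 months, from 0 to 8 (median 1) at 15 months and from 0 to 8 (median 2) at 16.5 months. The highest counts were in the 12- and 13.5-month libraries, but the ranges overlapped at all ages and 6 libraries, all at 15 or 16.5 months, had 0. Mean levels were 0.507 ± 0.221, 0.645 ± 0.416, 0.322 ± 0.345 and 0.200 ± 0.174 CPM in order of age (SD, n = 10 each).

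Over age miR-29c-3p had an adjusted p of 0.0534 by edgeR, just outside the threshold, and of 0.0328 by DESeq2. With edgeR it passed when any 1 of 10 libraries was left out, at adjusted p down to 0.0238. It was lower at 16.5 than at 13.5 months, with a log2 fold change of -1.39 (SE 0.43, 95% interval -2.26 to -0.51, adjusted p = 0.0165 by edgeR), a level 0.383 times that at 13.5 months. For this pair 40 of 345 microRNAs were called lower, 11.6%. All 10 libraries at 16.5 months lay below the 13.5-month mean, but 3 of them held 0 counts. There the limit that 0 counts allow (3 counts) stood at 3.89, 16.1 and 32.3 CPM of the counts outside miR-486. The 13.5-month mean on that scale was 11.3, so the libraries at 16.1 and 32.3 cannot show a level below it. Without the 13.5-month library with 17 counts the adjusted p was 0.0675. With library totals alone the log2 fold change was -1.54 and the adjusted p 0.0524 (edgeR). Against 12 months the log2 fold change at 16.5 months was -1.06 (SE 0.43, adjusted p = 0.0976), which did not pass.

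**Figure D2:**
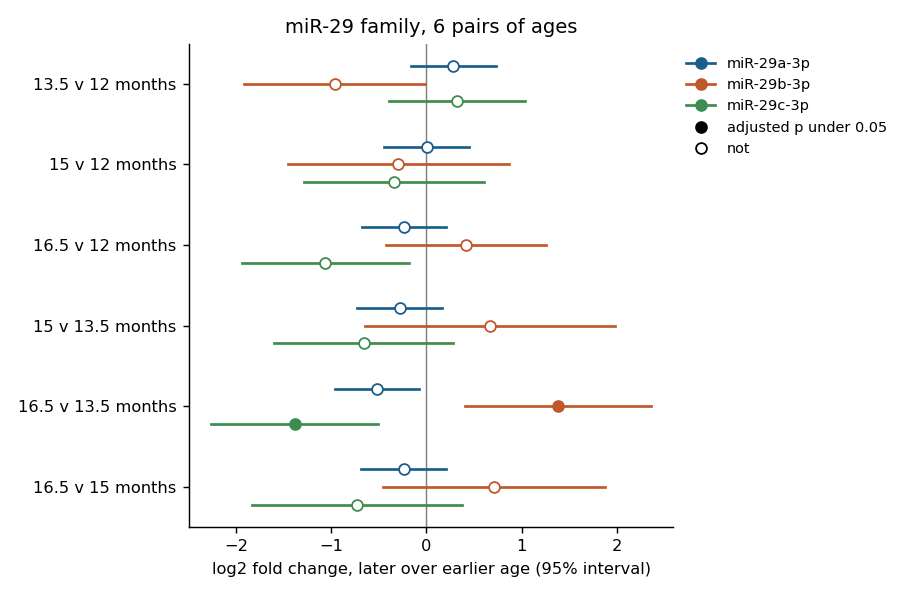
Log2 fold change of the later over the earlier age for the 3 members and 6 pairs of ages. Lines are 95% intervals and filled circles had an adjusted p under 0.05 by edgeR, adjusted within each pair and not over the 6 pairs. Of the 18 estimates, those of miR-29b-3p (1.38) and miR-29c-3p (-1.39) at 16.5 against 13.5 months were filled, on opposite sides of 0.

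Between members, the balance of miR-29c-3p to miR-29b-3p shifted with age. A ratio within a library does not depend on how libraries are scaled to each other, but counts added to low counts tie it to depth. Summed over the libraries of an age, miR-29c-3p had 82 counts to 40 of miR-29b-3p at 12 months, 83 to 16 at 13.5 months, 19 to 9 at 15 months and 24 to 35 at 16.5 months. miR-29b-3p was thus 32.8% of the counts of both at 12 months (exact 95% interval 24.6 to 41.9), 16.2% at 13.5 months (9.53 to 24.9), 32.1% at 15 months (15.9 to 52.4) and 59.3% at 16.5 months (45.7 to 71.9). Leaving out any 1 library moved the 16.5-month share between 53.2 and 63.6% and the 13.5-month share between 13.7 and 18.5%. Of the 35 miR-29b-3p counts at 16.5 months, 10 and 6 came from 2 libraries that held 2 and 0 counts of miR-29c-3p. Leaving out 1 library at a time cannot show how far the share rests on both. miR-29c-3p had the larger count in 10 of 10 libraries at 12 months, in 9 of 10 at 13.5 months, and in 3 of 10 at 15 and at 16.5 months, with 4 ties at each of these ages. At both of these ages 2 of the 4 ties had 0 counts of both members and say nothing of their balance, which leaves 3 of 8 libraries.

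The log2 ratio of miR-29c-3p to miR-29b-3p in single libraries, with 0.5 counts added to each, was 1.15 ± 0.56 at 12 months, 2.14 ± 1.42 at 13.5 months, 0.49 ± 1.69 at 15 months and -0.44 ± 1.39 at 16.5 months (SD, n = 10 each). The medians were 1.25, 2.22, 0 and 0 in order of age. Over the 4 ages the permutation test gave an adjusted p of 0.00168 over the 3 ratios. At 16.5 months the log2 ratio was lower than at 13.5 months by a difference of -2.57 and lower than at 12 months by a difference of -1.58, each with an adjusted p of 0.00195 over the 6 pairs in two-sided permutation tests. At 16.5 months 2 libraries had 0 counts of both members, so their ratio was set to 0 by the 0.5 counts added, and the other 8 all lay below both earlier means. Without the 4 libraries at 0 of both (2 at 15 months), the differences were -2.68 (adjusted p = 0.00441) and -1.69 (adjusted p = 0.00438, permutation tests). The size depended on the pseudocount: with 5 counts added they were -1.07 (adjusted p = 0.00135) and -0.74 (adjusted p = 0.00042, permutation tests). The 12- and 16.5-month libraries share a form of column name, while the comparison with 13.5 months, like the miR-29b-3p and miR-29c-3p calls for that pair, crosses forms. The other 4 pairs had adjusted p from 0.0664 to 0.268. With pooled shares in place of log ratios, the shares of miR-29b-3p differed by 43.2 percentage points between 16.5 and 13.5 months (adjusted p = 0.00099) and by 26.5 points between 16.5 and 12 months (adjusted p = 0.00084), in permutation tests over libraries. Reads of 18 or 19 bases that both hairpins hold would add to both counts, and how many there were was not tested.

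The ratio of miR-29a-3p to miR-29b-3p also changed over age (adjusted p = 0.00168, permutation test). Its log2 mean was 7.98 ± 0.80 at 12 months, 9.05 ± 1.11 at 13.5 months, 7.70 ± 1.37 at 15 months and 7.15 ± 0.49 at 16.5 months (SD, n = 10 each). At 16.5 against 13.5 months the difference was -1.90 with an adjusted p of 0.00078 in a two-sided permutation test, and the pooled share of miR-29b-3p was higher by 0.411 percentage points there (adjusted p = 0.00354, permutation test). The log2 differences for 13.5 against 12, 16.5 against 12 and 15 against 13.5 months were 1.07, -0.83 and -1.35, with adjusted p of 0.0386, 0.0377 and 0.0386 in permutation tests. These 3 calls were lost with pooled shares (adjusted p = 0.0883, 0.178 and 0.178). With a pseudocount of 5 counts the differences were -1.42 for 16.5 against 13.5 and -1.64 for 15 against 13.5 months. Where miR-29b-3p had 0 counts, the log2 ratio was set by the added 0.5 counts and by the depth of the library. With 5 counts added, this dependence on depth reached all libraries, since miR-29b-3p never exceeded 10 counts.

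The ratio of miR-29a-3p to miR-29c-3p was not called over age by log2 ratios, with means of 6.83 ± 0.40, 6.91 ± 0.74, 7.20 ± 0.63 and 7.59 ± 1.24 in order of age (SD, n = 10 each, adjusted p = 0.169, permutation test). With pooled shares the adjusted p was 0.0175. The pooled share of miR-29c-3p in both was 0.834% at 12 months and 0.900% at 13.5 months, against 0.649% at 15 months and 0.402% at 16.5 months.

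**Figure D3:**
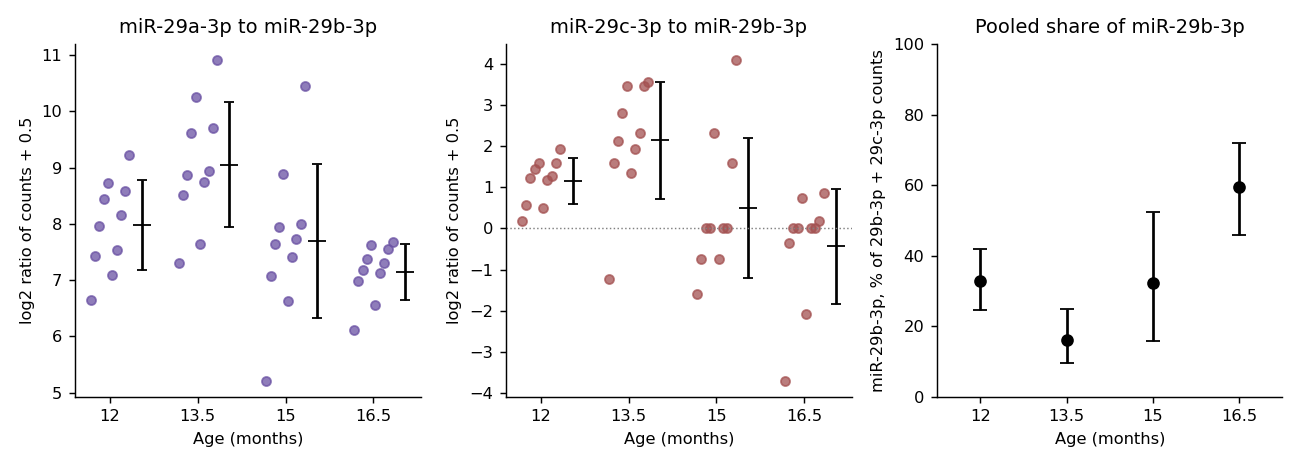
Left and middle, log2 ratios of counts plus 0.5 in each library by age, with mean ± SD. Right, share of miR-29b-3p in the pooled counts of miR-29b-3p and miR-29c-3p with its exact 95% interval, lowest at 13.5 months (16.2%) and highest at 16.5 months (59.3%).

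The passenger strands of the hairpins were near the limit of detection. They are shown because they name the hairpin that a shared guide strand cannot name, again with bases 2 to 8 in capitals.

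miR-29a-5p: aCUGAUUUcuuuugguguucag
miR-29b-1-5p: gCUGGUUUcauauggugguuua
miR-29b-2-5p: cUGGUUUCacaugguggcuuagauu
miR-29c-5p: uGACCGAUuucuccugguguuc

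miR-29a-5p had 9 counts over all 40 libraries and made 0.0324% of the reads of both of its arms. miR-29b-1-5p had 5 counts and miR-29b-2-5p had 3, from the chromosome 6 and the chromosome 1 hairpin. miR-29c-5p had 29 counts, the most of the passengers. Its share of the reads of both miR-29c arms was 6.82% at 12 months (6 counts, exact 95% interval 2.54 to 14.3), 8.79% at 13.5 months (8 counts, 3.87 to 16.6), 13.6% at 15 months (3 counts, 2.91 to 34.9) and 33.3% at 16.5 months (12 counts, 18.6 to 50.97). At 16.5 months 6 of 10 libraries held a miR-29c-5p read, and single libraries gave 5 and 3 of the 12 counts. No test was made of the passenger strands.

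The level of miR-29a-3p depended on how libraries were scaled. Scaling by library totals alone set the median of the 105 fold changes, on the log2 scale, at -0.84 for 15 against 12 months and at -0.81 for 15 against 13.5 months. Under it miR-29a-3p was called lower at 15 than at 13.5 months (log2 fold change -0.97, adjusted p = 0.0187, edgeR). For 16.5 against 15 months the sign of the change was positive (0.36) under library totals and negative (-0.60, adjusted p = 0.0330, edgeR) with 1 RUVs factor. The estimate for 16.5 against 13.5 months was negative under each of the 5 settings plotted.

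**Figure D4:**
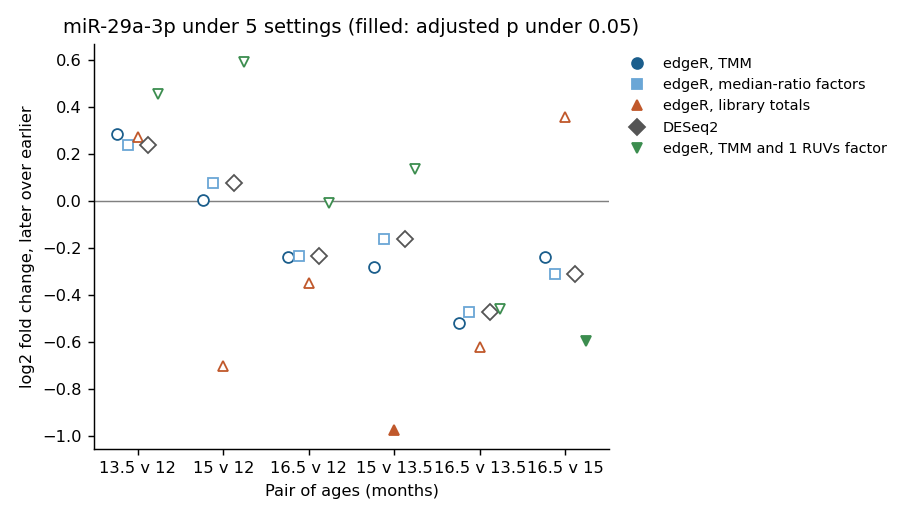
Log2 fold change of miR-29a-3p for the 6 pairs of ages under 5 settings. Filled symbols had an adjusted p under 0.05. All 5 settings lie below 0 for 16.5 against 13.5 months, while library totals alone give -0.70 for 15 against 12 months, where TMM gives 0.00.

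Among the 104 other microRNAs with over 100 reads in 50% of libraries, those whose log2 CPM followed miR-29a-3p most closely over the 40 libraries were miR-181c-5p (Pearson r = 0.857), miR-15a-5p (0.778), the erythroid miR-451a (0.721), miR-93-5p (0.711) and miR-148b-3p (0.683). The same libraries, depths and scaling enter both sides of each r, so these are descriptions. The lowest r was that of miR-25-5p, -0.877. GC content moved with this likeness. A sequence was matched for 89 of the 104 (85.6%), and the 20 with the highest r had a median GC content of 40.9%, against 45.8% over the 89 and 57.1% over the 20 with the lowest r. miR-29a-3p itself has 40.9%. r with miR-29a-3p and GC content had a Pearson correlation of -0.442 over these 89, a description across microRNAs, which share their libraries. Its part in the level of miR-29a-3p was not tested.

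**Figure D5:**
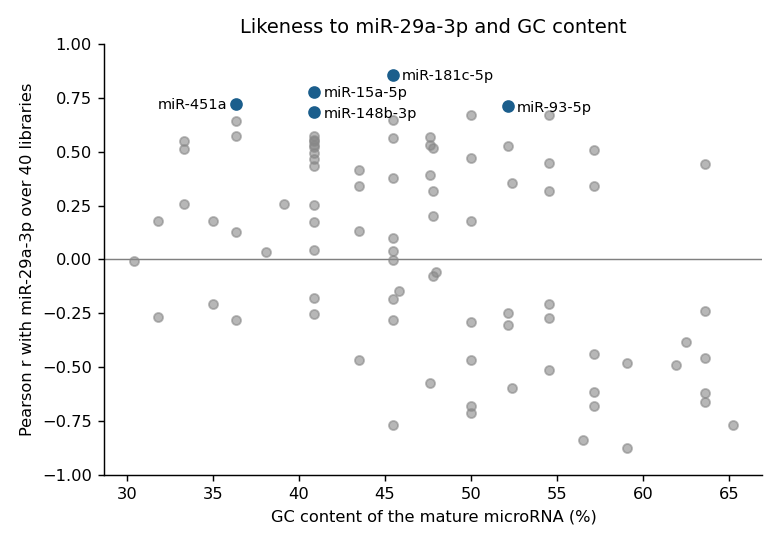
Pearson r of log2 CPM with miR-29a-3p over 40 libraries against the GC content of 89 microRNAs. The 5 highest are named and run from 36.4 to 52.2% GC, and the correlation across points was -0.442.

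MicroRNAs that share a known role with miR-29 were described beside it. Of the 3 others known to act on DNA methyltransferases, all were called over age: miR-148a-3p (adjusted p = 0.00487) and miR-148b-3p (0.00105) among the 105, and miR-152-3p (0.0297) among the 345, all by edgeR, where 61% of the 105 and 39.1% of the 345 were called. At 16.5 against 12 months all 3 were called lower, with log2 fold changes of -1.03 (SE 0.31), -0.66 (SE 0.21) and -1.08 (SE 0.37). For this pair the log2 fold change of miR-29a-3p was -0.24 (SE 0.22), that of miR-29b-3p 0.42 (SE 0.42) and that of miR-29c-3p -1.06 (SE 0.43), none of them called. Of the 105, 11 were called lower for this pair, 10.5%, and of the 345, 31 were, 8.99%. At 16.5 against 13.5 months none of the 3 was called, with log2 fold changes of 0.02, -0.39 and -0.15 and adjusted p of 0.954, 0.130 and 0.864 (edgeR).

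Of 10 further microRNAs known from fibrosis, 7 were tested and 5 were called over age, namely 2 of 3 among the 105 and 3 of 4 only among the 345, against 61% and 39.1% of all microRNAs tested. At 16.5 against 13.5 months 1 of the 7 was called. This was miR-30a-5p, with an adjusted p of 7.19e-06 over age, which rose by a log2 fold change of 0.60 (SE 0.12, adjusted p = 9.63e-05, edgeR). miR-21a-5p, the best known of them as a driver of fibroblast activation, was not called over age (adjusted p = 0.155, edgeR) and had a log2 fold change of 0.43 (SE 0.25) for the same pair.

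Cell markers were read at 16.5 against 13.5 months, where the miR-29b-3p and miR-29c-3p calls lay. Of the 15 markers listed for blood and liver cells, 14 were tested and 3 were called, all higher, namely 2 of 8 among the 105 and 1 of 6 only among the 345. Of all microRNAs tested, 40% of the 105 and 21.4% of the 345 were called for this pair. Erythroid miR-144-5p was higher (log2 fold change 1.56, SE 0.29, adjusted p = 2.69e-05, edgeR), as was lymphoid miR-342-3p (0.73, SE 0.19, adjusted p = 0.00185) and the leukocyte marker miR-142a-3p (1.23, SE 0.31, adjusted p = 0.00322), while miR-486a-5p (0.39, SE 0.24) and miR-451a (0.12, SE 0.33) did not pass. The other lymphoid markers, miR-150-5p (0.16, SE 0.29, adjusted p = 0.685) and miR-155-5p (0.20, SE 0.26, adjusted p = 0.673), did not pass by edgeR. Nor did the other leukocyte marker miR-142a-5p (0.24, SE 0.13, adjusted p = 0.153), with a median of 26157 counts against 59.5 for miR-142a-3p. Myeloid miR-223-3p did not pass either (0.33, SE 0.21, adjusted p = 0.196). The platelet and endothelial miR-126a-3p had 0 to 20 counts per library and a log2 fold change of -0.64 (SE 0.41, adjusted p = 0.293). The other listed marker of these cells, miR-126a-5p, had 0 to 118 counts and went the other way (0.60, SE 0.43, adjusted p = 0.357, edgeR). In whole blood, fewer cells of a type and less RNA per cell cannot be told apart, and the part of blood cell makeup in the miR-29 values was not tested.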

How the data were processed

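Small RNA was sequenced on an Illumina HiSeq instrument (50-base single-end reads) from total blood. Per the labels and the study's methods, the authors used CASAVA, cutadapt and FastQC 0.11.5, dropped reads under 18 bases, counted reads with miRDeep2 against miRBase 21 and mm10 with 0 mismatches, and summed reads of a mature strand over its loci. The authors deposited raw counts per mature microRNA, used here unchanged. A normalized table was not used.

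Groups were the ages in the labels and column names. Counts were fitted over all 40 libraries, with no library dropped, by the quasi-likelihood test of edgeR 4.0.16 (TMM, R 4.3.3). Benjamini-Hochberg adjustment was made over all microRNAs tested, with a threshold of 0.05. For single microRNAs each pair of ages was adjusted on its own, with no adjustment over the pairs. The filter was over 100 reads in 50% of libraries, or over 1 read for members below it. CPM used TMM library sizes, and log2 CPM a prior count of 2. Ratios between members used permutation tests with 100000 resamples. Alternatives were DESeq2 1.42.0, other scalings and filters, 1 RUVs factor, left-out libraries, other pseudocounts and a replicate block. Fits were tested on simulated data. The members and lists were chosen with earlier results of these data known. Named microRNAs were the members, their passenger strands, the 5 most like miR-29a-3p, and the listed markers; miR-25-5p, lowest in likeness, was named after its values were seen.

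The 10 numbers in the column names recur at each age and are not the replicate numbers of the labels. Their meaning is not stated. As a check, deviations from age means of same-numbered libraries had a median correlation of -0.0278 over 60 pairs, of which 24 were over 0.1. For libraries of different numbers and ages the median was 0.0077.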

Additional observations from a re-analysis of the deposited data

Results flagged for a closer look

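Of 24 groups of 10 libraries examined, 1 held a library far from the others. The log2 ratio of miR-29c-3p to miR-29b-3p was -1.22 in 1 library at 13.5 months, with the next lowest at 1.35, and the gap made up 0.540 of the range of the group, above Dixon's 95% critical value for 10 samples. That library held 1 count of miR-29c-3p and 3 of miR-29b-3p. Chance alone flags about 1 in 20 groups. Without it, the difference between 13.5 and 12 months in this ratio was 1.36 with an adjusted p of 0.0009 by permutation, against 0.99 and 0.0819 with it.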

How the results depend on the processing

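Over 37 results, 229 values were computed under settings other than leaving out 1 library: 198 kept their direction and side of the threshold, 8 lost the call, 10 gained one, 11 changed sign and 2 counts moved by over 1.5 times. Both ratios to miR-29b-3p kept their call over age and for 16.5 against 13.5 months under each setting run, as did miR-29c-3p to miR-29b-3p for 16.5 against 12 months. Elsewhere the cause of a change was not tested, except that a wider filter tests more microRNAs.

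With DESeq2, miR-29c-3p over age had an adjusted p of 0.0328. With library totals alone, miR-29a-3p had log2 fold changes of -0.70 for 15 against 12, -0.97 (adjusted p = 0.0187) for 15 against 13.5 and 0.36 for 16.5 against 15 months. In that setting miR-29b-3p had 1.33 (adjusted p = 0.124) for 16.5 against 13.5 months, and miR-29c-3p had an adjusted p of 0.0313 over age, -1.39 (0.0392) for 15 against 13.5 and -1.54 (0.0524) for 16.5 against 13.5 months. With over 1 read in 50% of libraries, 135 microRNAs of 345 were called over age in place of 64 of 105, and miR-29a-3p had -0.018 for 15 against 12 months. With no filter 113 of 1016 were called, miR-29a-3p had -0.095 for 15 against 12 months and miR-29b-3p had 1.38 (0.0959) for 16.5 against 13.5 months. With 1 RUVs factor, miR-29a-3p had an adjusted p of 0.0249 over age, 0.14 for 15 against 13.5 and -0.60 (0.0330) for 16.5 against 15 months, while 15 against 12 months gave 0.32 for miR-29b-3p and 0.074 for miR-29c-3p. These adjusted p are from edgeR unless DESeq2 is named.

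With a pseudocount of 5 counts, the log2 ratio of miR-29a-3p to miR-29b-3p differed by 0.27 for 13.5 against 12, -1.37 for 15 against 12 and 0.22 for 16.5 against 15 months, and that of miR-29c-3p to miR-29b-3p by -0.73 for 15 against 13.5 months. With pooled shares, a measure chosen after seeing the data, the adjusted p of miR-29a-3p to miR-29c-3p over age was 0.0175. The log2 difference in pooled miR-29a-3p to miR-29b-3p was 1.23 for 13.5 against 12, 0.41 for 15 against 12, -0.52 for 16.5 against 12 and -0.82 for 15 against 13.5 months, and in miR-29c-3p to miR-29b-3p it was 1.34 for 13.5 against 12 and 0.042 for 15 against 12 months.

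The replicate numbers that the labels give do not appear in the columns and could not serve for pairing. A replicate block on the number in the column names, added after seeing the data, called 66 of 105 over age, gave -0.054 for miR-29a-3p at 15 against 12 months, and lost the call of miR-29a-3p to miR-29b-3p for 15 against 13.5 months (-1.35, adjusted p = 0.0908, exact sign-flip test). It changed no other call. In 8 of 60 pairs a library correlated best with its own number, out of 10 numbers at the other age.

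With each of 40 libraries left out in turn, miR-29a-3p ranged from -0.13 to 0.11 for 15 against 12 and from -0.58 to -0.40 for 16.5 against 13.5 months. miR-29b-3p ranged from 1.19 to 1.57 and miR-29c-3p from -1.61 to -1.13 for 16.5 against 13.5 months. The adjusted p of miR-29c-3p over age ranged from 0.0238 to 0.135 (edgeR). Log2 ratio differences of miR-29a-3p to miR-29b-3p ranged from 0.87 to 1.27 for 13.5 against 12 months, where 10 omissions lost the call, and from -1.66 to -1.08 for 15 against 13.5 months, where 16 did. Those of miR-29c-3p to miR-29b-3p ranged from 0.83 to 1.36 for 13.5 against 12, from -1.05 to -0.42 for 15 against 12 and from -2.04 to -1.41 for 15 against 13.5 months.

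The planned setting of at least 20 counts of both members per library was not run, since at most 1 library met it. Counts of miR-29b-3p and miR-29c-3p of 22 or fewer per library limit what these data can show.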
